A study of Mus musculus with 8 samples.

Results

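10 genes of the matricellular and adhesive matrix were followed across 8 mouse colon tumours: the thrombospondin genes Thbs1, Thbs2, Thbs3, Thbs4 and Comp, the tenascin genes Tnc and Tnxb, the periostin gene Postn, Sparc, and the fibronectin gene Fn1. They were chosen by name, as 10 of the 38355 genes in each count table, and all 10 passed the filter on low counts, which kept 16539 genes. Matricellular proteins are secreted into the extracellular matrix, where they act less as load-bearing fibres than as modulators: they bind collagens, growth factors and cell surface receptors and change how cells adhere, migrate and respond to growth factors. Most are low in resting adult tissue and abundant in wounds and in the stroma of tumours, where fibroblasts and smooth-muscle-like cells are major sources. Fibronectin is an adhesive fibre-forming glycoprotein on which several of the others assemble.

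The tumours came from mice given azoxymethane, a colon carcinogen, and all carried the Trp53ΔIEC alleles, in the field's notation a loss of Trp53 in intestinal epithelial cells. In 4 of them, the Trp53ΔIECAktE17K group, an Akt allele with the activating E17K substitution was added, and the other 4, the Trp53ΔIEC group, are the comparison. Each tumour was a whole tissue piece from its own mouse, so epithelium, stroma, vessels and blood were sequenced together. The sources used here do not give the promoter that drives the epithelial recombination, nor the age or sex of the mice. The series title names AKT, NOTCH3 and a mesenchymal colorectal cancer subtype, and the comparison asks what active AKT adds to Trp53-deficient tumours.

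Assigned reads ranged from 18572180 to 26268547 per tumour, and levels are given as CPM, the read count scaled to a common library size with TMM factors. The epithelial markers summed to between 9340 and 11667 CPM in Trp53ΔIEC and between 5522 and 11274 CPM in Trp53ΔIECAktE17K tumours, where replicate 4 alone reached the Trp53ΔIEC range. Of these 8 markers 0 were called by edgeR, 4 were lower and 0 higher at an unadjusted p under 0.05, and the most abundant were Krt19 (2568 ± 290 and 2135 ± 866 CPM) and Epcam (2294 ± 236 and 1518 ± 388 CPM). Their median log2 fold change was -0.46, and without replicate 4 it was -0.66, with 1 marker called lower. Over all genes 569 were higher and 125 lower in Trp53ΔIECAktE17K tumours at an adjusted p under 0.05 (edgeR quasi-likelihood test). The sample titles carry the letter A for Trp53ΔIECAktE17K replicates 1 and 2 and the letter B for the other 6 tumours. No source explains this letter, and the tables' own codes put an A on each Trp53ΔIECAktE17K tumour, so values among the letter B tumours alone are also given. Letter A holds tumours of 1 group only and gives no comparison of its own. Trp53ΔIECAktE17K replicate 4 stood apart from its group on principal component 1: its score there (39.8% of the variance) was 20.4, against 62.5 to 80.6 for the other 3 and -59.6 to -49.7 for the Trp53ΔIEC tumours. Replicate 3 stood apart on component 2, at 73.0 against -64.8 to 4.5 for the rest of its group. Its highest correlation with a tumour of its group was 0.934, against 0.945 to 0.957 for the others. Trp53ΔIEC replicate 1 also lay apart from its group on component 2, at 47.2 against -18.7 to 9.5. Its highest correlation within its group was 0.950, against 0.961 to 0.966 for the others. Without Trp53ΔIECAktE17K replicate 4 edgeR called 702 genes higher and 247 lower, and 4 of the 10 genes instead of 3. Without Trp53ΔIECAktE17K replicate 3 it called 567 higher and 98 lower, and 2 of the 10. Without Trp53ΔIEC replicate 1 it called 217 higher and 37 lower, and 3 of the 10.

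All 10 genes had a higher fitted level in Trp53ΔIECAktE17K than in Trp53ΔIEC tumours, and 3 of them rose at an adjusted p under 0.05: Thbs2, Sparc and Comp. Over all tested genes 3.44% rose and 0.756% fell, and 0 of the 10 fell. At an unadjusted p under 0.05, 9 of the 10 were higher, where 12.8% of all genes were and 8.07% were lower, and the exception was Thbs3. DESeq2 called 6 of the 10 higher, with 8.31% of all its tested genes, and limma-voom called 2, with 2.61%. The genes that DESeq2 added were Tnc, Postn and Fn1 (adjusted p = 0.00153, 0.0109 and 0.0131). In 6 of the 10 (Thbs2, Comp, Tnc, Postn, Sparc and Fn1) every Trp53ΔIECAktE17K tumour lay above every Trp53ΔIEC tumour, where 8.34% of all genes did. The median log2 fold change of the 10 was 1.41, against 0.01 for all tested genes. In whole tumours fewer cells of a type and less RNA per cell cannot be told apart. In the same tumours 7 of 10 tested smooth muscle markers and 4 of 10 fibroblast markers rose, while epithelial markers were on the lower side, and the part of these shifts in the results was not tested.

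**Figure D1:**
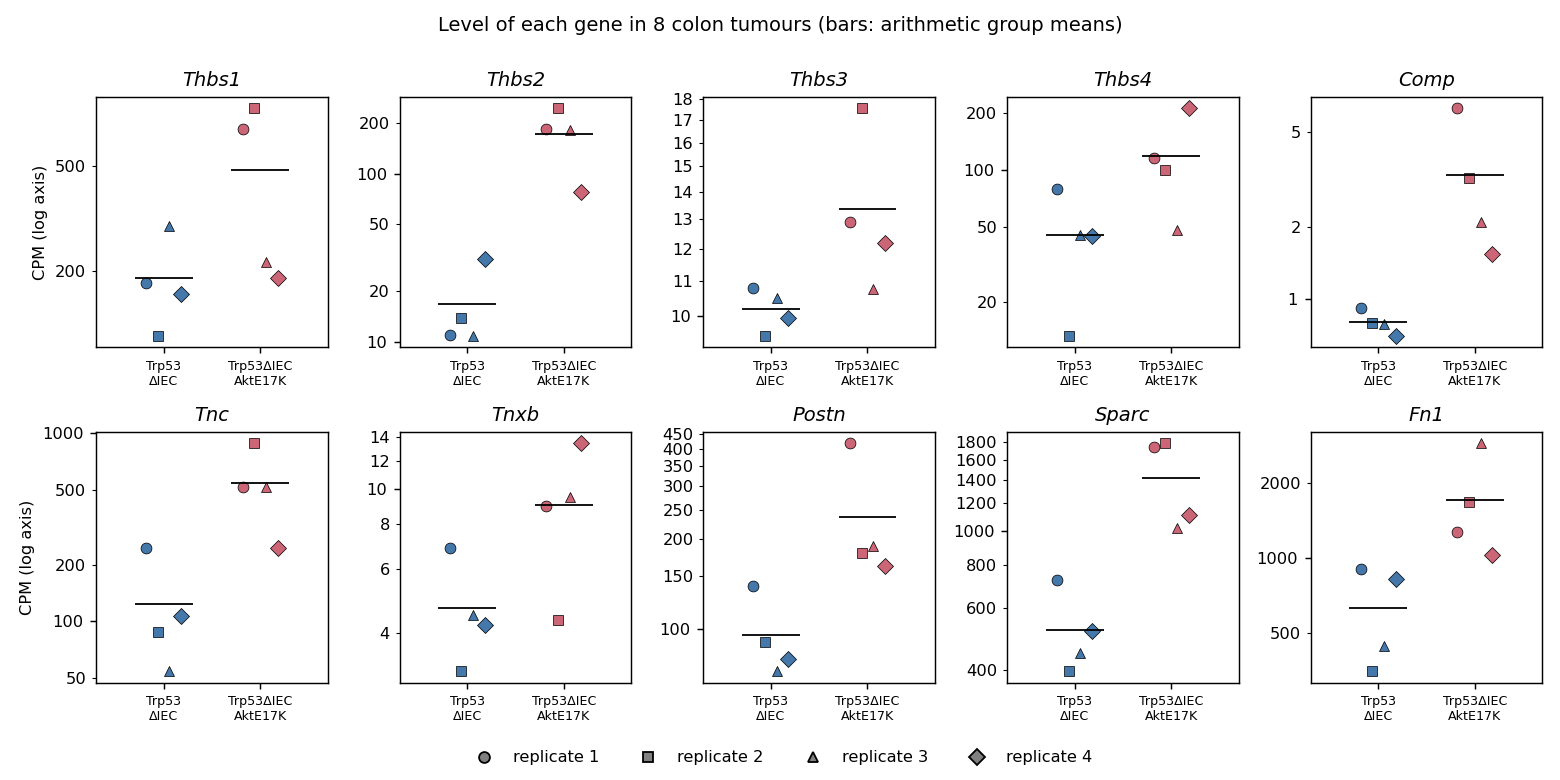
Level of each of the 10 genes in every tumour (y axis: CPM, log axis with its own range in each panel, x axis: genotype). Symbols mark the replicate number, by which the labels pair no tumours, and bars are group means, n = 4. The groups do not overlap for Thbs2, Comp, Tnc, Postn, Sparc and Fn1, and Thbs1 splits the Trp53ΔIECAktE17K tumours into 694.5 and 831.1 CPM against 216.9 and 189 CPM.

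Promoter sequences are shown for Thbs2 and Sparc, which passed the test, and for Tnc and Postn, whose groups did not overlap. Each window runs from 250 bases before to 50 bases after an annotated start (RefSeq, GRCm38.p6, gene strand, 5′ to 3′). Windows were matched for 7 of the 10 genes, and not for Thbs1, Comp and Fn1. Comp also passed the test and the groups of Fn1 did not overlap, but without a window neither could be shown. The start used for Sparc, 55420080, lies inside the gene as placed below, which begins at 55423183 on the minus strand. Capitals mark the TATA box letters TATAAA, the letters CAGACA, which contain the core recognised by SMAD factors, and the letters TGGGAA of RBPJ, the DNA-binding partner of Notch, each on either strand, so that some appear as their reverse complement.
Thbs2, chr17:14694213-14694512, minus strand: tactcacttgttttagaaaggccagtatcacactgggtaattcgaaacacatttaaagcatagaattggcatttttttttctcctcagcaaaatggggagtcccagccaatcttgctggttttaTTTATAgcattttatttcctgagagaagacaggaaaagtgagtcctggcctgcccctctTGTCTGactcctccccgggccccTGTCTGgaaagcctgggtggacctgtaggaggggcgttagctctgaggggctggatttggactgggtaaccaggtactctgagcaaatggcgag
Sparc, chr11:55420031-55420330, minus strand: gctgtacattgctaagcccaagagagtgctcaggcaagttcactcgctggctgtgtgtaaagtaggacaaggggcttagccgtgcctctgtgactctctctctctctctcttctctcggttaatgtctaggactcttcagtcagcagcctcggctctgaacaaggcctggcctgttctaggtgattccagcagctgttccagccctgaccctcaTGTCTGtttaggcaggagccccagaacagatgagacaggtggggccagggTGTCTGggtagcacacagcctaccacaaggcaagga
Tnc, chr4:64046966-64047265, minus strand: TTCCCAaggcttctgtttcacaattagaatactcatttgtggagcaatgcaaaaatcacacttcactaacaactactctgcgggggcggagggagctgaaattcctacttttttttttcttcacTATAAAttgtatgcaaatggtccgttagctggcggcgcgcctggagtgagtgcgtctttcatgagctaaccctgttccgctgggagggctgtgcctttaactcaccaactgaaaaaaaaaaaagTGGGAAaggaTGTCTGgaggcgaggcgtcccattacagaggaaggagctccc
Postn, chr3:54360857-54361156, plus strand: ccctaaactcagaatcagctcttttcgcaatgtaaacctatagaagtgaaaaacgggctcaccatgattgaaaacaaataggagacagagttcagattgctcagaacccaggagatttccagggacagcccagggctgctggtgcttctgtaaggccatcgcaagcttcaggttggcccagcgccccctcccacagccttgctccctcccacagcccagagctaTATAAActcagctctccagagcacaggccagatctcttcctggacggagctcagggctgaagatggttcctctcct

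With the annotated start counted as 0, the TATAAA of Postn begins at -26, where a TATA box usually lies, whereas the match of Tnc begins at -126 and the reverse-strand match of Thbs2 also at -126. Postn and Tnc each have a second annotated start: the other Postn window holds no TATAAA, and from the other Tnc start the same letters begin at -205. That other Tnc window, not shown, also holds the letters tatataag shortly before its start. The search for the exact letters TATAAA does not count such near matches, so these positions do not show which genes lack a TATA box. The CAGACA matches begin at -67 and -44 in Thbs2 and at -36 and 14 in Sparc. Over the 9 windows of the 7 genes, of which those of Tnc overlap each other, CAGACA was found in 5, TGGGAA in 4 and TATAAA in 4, and 21.0%, 25.6% and 13.6% of 32851 windows of all genes held them. Of the other motifs searched, each on both strands, CANNTG (the E box) was in 7 of the 9 windows, GGGCGG (the GC box) in 4, GGAATG (TEAD) in 1 and TGANTCA (AP-1) in 1, against 72.3%, 35.7%, 14.7% and 7.81% of all windows. A match describes these letters only, and is not a measured binding site.

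The 5 thrombospondin genes differed widely among themselves, from a 10.3-fold rise of Thbs2 to a 1.31-fold difference for Thbs3 that did not pass the test. Thbs1 and Thbs2 encode the trimeric members, which carry the repeats that restrain angiogenesis, while Thbs3, Thbs4 and Comp encode pentameric members. Thbs2 (ENSMUSG00000023885, chromosome 17, 14665500 to 14694235, minus strand, mm10) measured 10.98, 13.9, 10.9 and 31.2 CPM in Trp53ΔIEC replicates 1 to 4 and 183.7, 244.8, 182.3 and 78.3 CPM in Trp53ΔIECAktE17K replicates 1 to 4. The lowest Trp53ΔIECAktE17K tumour, replicate 4, thus still lay above the highest Trp53ΔIEC tumour, which was also replicate 4. Means were 16.7 ± 9.75 and 172.3 ± 69.1 CPM (SD, n = 4 each), and the log2 fold change was 3.36 ± 0.47 (SE, edgeR adjusted p = 0.0142). The call was lost without Trp53ΔIEC replicate 2 (adjusted p = 0.0650) and without replicate 3 (0.0567), at log2 fold changes of 3.28 and 3.19. Among the letter B tumours alone the log2 fold change was 2.93, with an unadjusted p of 0.00116 and an adjusted p of 0.101.

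Thbs1 (ENSMUSG00000040152, chromosome 2, 118111876 to 118127133, plus strand) encodes the thrombospondin that platelets release and that can activate latent TGF-beta. Its level was 180.3, 113.9, 295.9 and 163.9 CPM in Trp53ΔIEC replicates 1 to 4, and 694.5, 831.1, 216.9 and 189 CPM in Trp53ΔIECAktE17K replicates 1 to 4. The high values were those of Trp53ΔIECAktE17K replicates 1 and 2, the letter A tumours, while replicates 3 and 4 lay inside the Trp53ΔIEC range. The log2 fold change was 1.36 ± 0.53 (adjusted p = 0.192), and among the letter B tumours it was 0.08 ± 0.36 (adjusted p = 0.947). Platelet and megakaryocyte markers summed to between 25.1 and 33.5 CPM in Trp53ΔIEC and between 15.4 and 57.7 CPM in Trp53ΔIECAktE17K tumours, with 0 of 6 tested members called by edgeR and 1 higher and 1 lower at an unadjusted p under 0.05. The most abundant were the platelet chemokine genes Ppbp (5.09 ± 4.50 and 18.4 ± 15.9 CPM) and Pf4 (7.22 ± 2.06 and 8.22 ± 3.36 CPM). The 2 tumours with the highest Thbs1 had 57.7 and 36.4 CPM of platelet markers, and Trp53ΔIECAktE17K replicate 4, with low Thbs1, had 44.2 CPM. The part of platelets in the Thbs1 level was not tested. Exons of Thbs1 share 208 bases, 3.42% of its exon length, with the opposite-strand gene Gm29233, which has no row in the count tables.

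Comp (ENSMUSG00000031849, chromosome 8, 70373558 to 70382066, plus strand), the cartilage oligomeric matrix protein gene of cartilage, tendon and scar tissue, rose from a very low level. The Trp53ΔIEC tumours had 0.919, 0.790, 0.782 and 0.698 CPM, which rest on 24, 21, 14 and 15 reads, and the Trp53ΔIECAktE17K tumours had 6.31, 3.21, 2.10 and 1.54 CPM from 149, 78, 50 and 33 reads. The groups did not overlap, and the letter A tumours were the 2 highest. Its log2 fold change of 2.04 ± 0.47 had an adjusted p of 0.0498, just inside the threshold. The call was lost in 7 of the 8 fits with 1 tumour left out, all but the one without Trp53ΔIECAktE17K replicate 4, with adjusted p values of up to 0.134. Its log2 fold change was 1.49 without Trp53ΔIECAktE17K replicate 1, and among the letter B tumours it was 1.15 (adjusted p = 0.269).

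Thbs4 (ENSMUSG00000021702, chromosome 13, 92751590 to 92794818, minus strand), a thrombospondin of tendon, muscle and heart, had 79.5, 13.3, 45.3 and 44.8 CPM in Trp53ΔIEC and 115.6, 100.7, 48.1 and 213.5 CPM in Trp53ΔIECAktE17K tumours. Trp53ΔIECAktE17K replicate 3 lay inside the Trp53ΔIEC range, and the highest tumour, replicate 4, was the lowest of its group for Thbs1 and Comp. The log2 fold change was 1.39 ± 0.57 (adjusted p = 0.211), and 1.49 among the letter B tumours (adjusted p = 0.460). Thbs3 (ENSMUSG00000028047, chromosome 3, 89215180 to 89226837, plus strand) was the steadiest gene, at 10.79, 9.48, 10.5 and 9.96 CPM in Trp53ΔIEC and 12.9, 17.6, 10.75 and 12.2 CPM in Trp53ΔIECAktE17K tumours. Its groups overlapped at replicate 3 of Trp53ΔIECAktE17K, and the log2 fold change was 0.39 ± 0.21 (adjusted p = 0.328), and 0.14 among the letter B tumours (adjusted p = 0.837). Exons of Thbs3 share 318 bases, 6.59% of its exon length, with the gene Mtx1 on the opposite strand, and the library kit does not mark strand.

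Muscle and connective tissue markers were measured beside these genes because heart, tendon and cartilage also make Thbs4 and Comp. Heart muscle markers rose in 9 of 11 tested genes, where 3.44% of all genes rose. They summed to between 36.9 and 115.2 CPM in Trp53ΔIEC and between 169.6 and 241.7 CPM in Trp53ΔIECAktE17K tumours. Most of the Trp53ΔIEC sum was Myl7 and Tnnt2 (18.9 ± 8.78 and 28.3 ± 13.3 CPM for Tnnt2), which edgeR did not call (adjusted p = 0.789 and 0.489). The sums therefore understate the rise of the called markers. Myh6, the main heart myosin gene of the mouse, had 0.0748 ± 0.101 CPM and 53.5 ± 4.42 CPM, so it was nearly level across the 4 Trp53ΔIECAktE17K tumours while Thbs4 spanned a 4.44-fold range and Comp a 4.10-fold range there. Myl7, the atrial light chain gene, had 43.2 ± 40.3 and 32.8 ± 19.9 CPM, and Myl3 had 0 reads in every Trp53ΔIEC tumour. Of 7 tested cartilage and tendon markers 0 were called by edgeR and 2 were higher at an unadjusted p under 0.05. Their sum was between 14.7 and 37.7 CPM in Trp53ΔIEC and between 32.8 and 138.9 CPM in Trp53ΔIECAktE17K tumours, and the most abundant were Col11a2 (10.8 ± 3.44 and 22.4 ± 5.29 CPM) and Mkx (11.35 ± 6.84 and 11 ± 9.81 CPM). Col2a1, with Col11a2 the other marker at that p, had 0.359 ± 0.229 and 7.07 ± 7.45 CPM (edgeR adjusted p = 0.0713). It had 16.8, 8.97, 2.18 and 0.373 CPM in Trp53ΔIECAktE17K replicates 1 to 4, the order of Comp, while Col11a2 and Mkx were highest in replicate 2. Skeletal muscle markers summed to between 14.01 and 32.4 CPM and between 21.04 and 36.6 CPM, led by Acta1 (7.54 ± 3.46 and 8.17 ± 5.02 CPM) and Tnni2 (9.03 ± 5.82 and 8.87 ± 5.29 CPM), with 1 of 5 tested genes higher and Myh4 at 0 reads in every tumour. The part of these tissues in Thbs4 and Comp was not tested.

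Tenascins form large oligomers that loosen or organise cell contact with fibronectin and collagen. Tnc (ENSMUSG00000028364, chromosome 4, 63959785 to 64047015, minus strand), the tenascin of wounds and tumour stroma, had 245.4, 87.3, 54.1 and 106.4 CPM in Trp53ΔIEC and 518.3, 884, 519.2 and 246.1 CPM in Trp53ΔIECAktE17K tumours. The groups were separated by less than 1 CPM, between Trp53ΔIEC replicate 1 and Trp53ΔIECAktE17K replicate 4. Its log2 fold change of 2.14 ± 0.53 missed the threshold (adjusted p = 0.0648), as it did in 6 of 8 fits with 1 tumour left out. Without Trp53ΔIEC replicate 1 it was 2.71 (adjusted p = 0.0430) and without Trp53ΔIECAktE17K replicate 4 it was 2.36 (adjusted p = 0.0400). The letter B tumours gave 1.60 (adjusted p = 0.339). Tnxb (ENSMUSG00000033327, chromosome 17, 34670535 to 34719815, plus strand), the tenascin of loose connective tissue that helps order collagen fibrils, had 6.89, 3.12, 4.47 and 4.19 CPM in Trp53ΔIEC and 8.97, 4.32, 9.49 and 13.4 CPM in Trp53ΔIECAktE17K tumours. Its highest tumour, Trp53ΔIECAktE17K replicate 4, was the lowest of that group for Tnc, and its lowest, replicate 2, was the highest for Tnc. The log2 fold change was 0.95 ± 0.39 (adjusted p = 0.212), and the letter B tumours gave 1.26 (adjusted p = 0.269). Exons of Tnc share 176 bases with 8030451A03Rik on the opposite strand, and those of Tnxb share 3 bases with Cyp21a2-ps.

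Sparc (ENSMUSG00000018593, chromosome 11, 55394500 to 55423183, minus strand) encodes a calcium- and collagen-binding glycoprotein that helps fibrillar collagen assemble. Its level was 724.8, 395.2, 447.5 and 515.8 CPM in Trp53ΔIEC and 1745, 1782, 1017 and 1110 CPM in Trp53ΔIECAktE17K tumours. The letter A tumours were the 2 highest, and the other 2 of their group still exceeded every Trp53ΔIEC tumour. Sparc rose from 520.8 ± 145 to 1414 ± 406 CPM, a log2 fold change of 1.44 ± 0.27 (adjusted p = 0.0276). The call held in 3 of the 8 fits with 1 tumour left out. It was lost without Trp53ΔIEC replicates 2, 3 and 4 (adjusted p = 0.0885, 0.0881 and 0.0866) and without Trp53ΔIECAktE17K replicates 1 and 2 (0.0807 and 0.0684). Among the letter B tumours the log2 fold change was 1.00 (unadjusted p = 0.00740, adjusted p = 0.199).

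Postn (ENSMUSG00000027750, chromosome 3, 54361109 to 54391037, plus strand) encodes periostin, which binds tenascin C, fibronectin and collagen and aids collagen crosslinking. It had 139.2, 90.7, 72.1 and 79.6 CPM in Trp53ΔIEC and 417.3, 178.8, 189.4 and 162.4 CPM in Trp53ΔIECAktE17K tumours. Trp53ΔIECAktE17K replicate 1 stood far above the other 3 of its group, and the groups did not overlap. The log2 fold change was 1.31 ± 0.35 (adjusted p = 0.0811), and 0.87 (adjusted p = 0.130) without that tumour. Among the letter B tumours it was 0.85 (adjusted p = 0.291).

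Fn1 (ENSMUSG00000026193, chromosome 1, 71585520 to 71653200, minus strand), which encodes both the tissue fibronectin of fibroblasts and the plasma form made by the liver, had 900.4, 350.5, 444.9 and 819.8 CPM in Trp53ΔIEC tumours. The Trp53ΔIECAktE17K tumours had 1272, 1673, 2875 and 1026 CPM. All 4 lay above the Trp53ΔIEC tumours, with replicate 3 the highest, unlike Sparc and Thbs1, for which replicates 1 and 2 were the highest. The log2 fold change was 1.44 ± 0.41 (adjusted p = 0.0969), 1.08 without replicate 3 (adjusted p = 0.151) and 1.60 among the letter B tumours (adjusted p = 0.288). Hepatocyte markers summed to between 81.6 and 142.7 CPM in Trp53ΔIEC and between 35.4 and 160 CPM in Trp53ΔIECAktE17K tumours, where the highest sum was again that of replicate 3. The fibrinogen gene Fgb made up most of that sum, at 126.3 CPM in replicate 3 and at most 1.52 CPM in the other 3 of the group, while Alb, the albumin gene, had 0.672 CPM there and 25.7 ± 6.21 CPM in Trp53ΔIEC tumours. Of 10 tested hepatocyte markers 1 fell and 0 rose by edgeR (5 and 1 at an unadjusted p under 0.05), and the most abundant were Tat (37.7 ± 26.7 and 32.1 ± 24.3 CPM) and Fgb (6.53 ± 0.497 and 32.0 ± 62.8 CPM). The part of liver transcripts in the Fn1 level was not tested. Exons of Fn1 share 292 bases, 2.50% of its exon length, with Apol7d on the opposite strand.

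**Figure D2:**
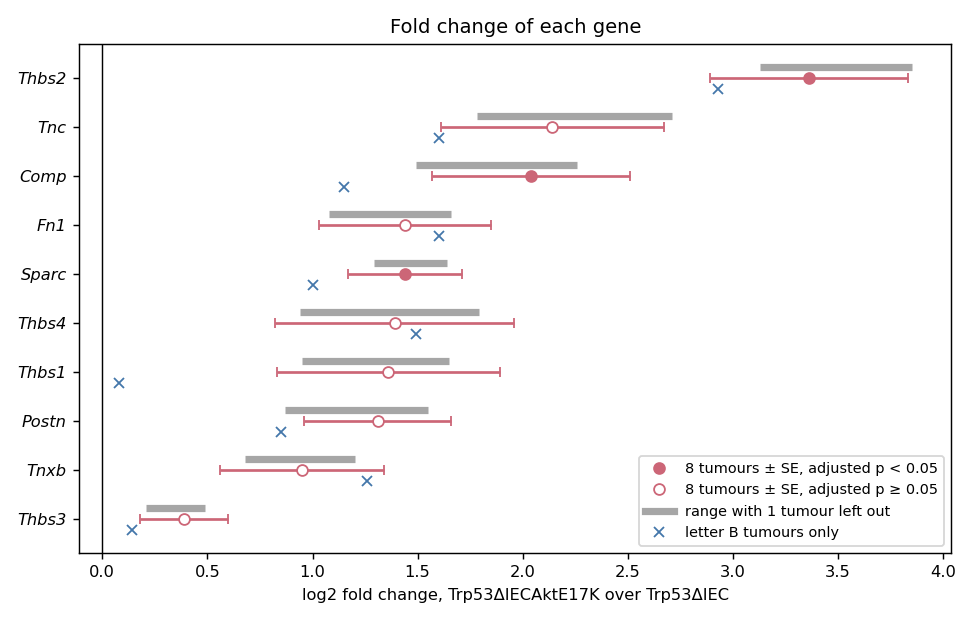
Log2 fold change of each gene, Trp53ΔIECAktE17K over Trp53ΔIEC (circles with SE, n = 4 each; filled where the adjusted p is under 0.05). Grey bars span the fits with 1 tumour left out and crosses give the letter B tumours alone, where Thbs1 drops to 0.08 while Thbs2 stays at 2.93.

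Scaled by length, the order of the genes was nearly the same in both genotypes. Sparc was highest, at 137.5 ± 38.2 CPM per kb of merged exon in Trp53ΔIEC and 373.2 ± 107 in Trp53ΔIECAktE17K tumours, and was above Fn1 (53.8 ± 23.3 and 146.5 ± 70.2 CPM per kb) in each of the 8 tumours. Thbs1, Tnc, Thbs4 and Postn followed, with neighbours whose ranges overlapped in both groups. In Trp53ΔIEC tumours Thbs2 stood with Thbs3 (2.39 ± 1.39 and 2.11 ± 0.121 CPM per kb, overlapping ranges), below every Postn value. In Trp53ΔIECAktE17K tumours Thbs2, at 24.6 ± 9.87 CPM per kb, overlapped with Postn (27.2 ± 13.9) and lay above every Thbs3 value (2.77 ± 0.612). Tnxb and Comp were lowest, at 0.382 ± 0.130 and 0.269 ± 0.0307 CPM per kb in Trp53ΔIEC and 0.741 ± 0.305 and 1.11 ± 0.718 in Trp53ΔIECAktE17K tumours, and their ranges overlapped in both groups. Of the summed length-scaled level of the 5 thrombospondins, Thbs2 made up between 2.34% and 9.41% in Trp53ΔIEC and between 10.1% and 32.8% in Trp53ΔIECAktE17K tumours. Thbs1 made up 62.7% ± 10.4 and 50.7% ± 17.6, and Thbs4 26.5% ± 11.6 and 27.9% ± 20.8, with overlapping groups. Thbs3 made up 4.69% ± 1.78 and 2.09% ± 0.589, lower in every Trp53ΔIECAktE17K than in every Trp53ΔIEC tumour. Its own mean level did not fall (2.11 and 2.77 CPM per kb), and a share falls when the rest of the sum rises more.

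**Figure D3:**
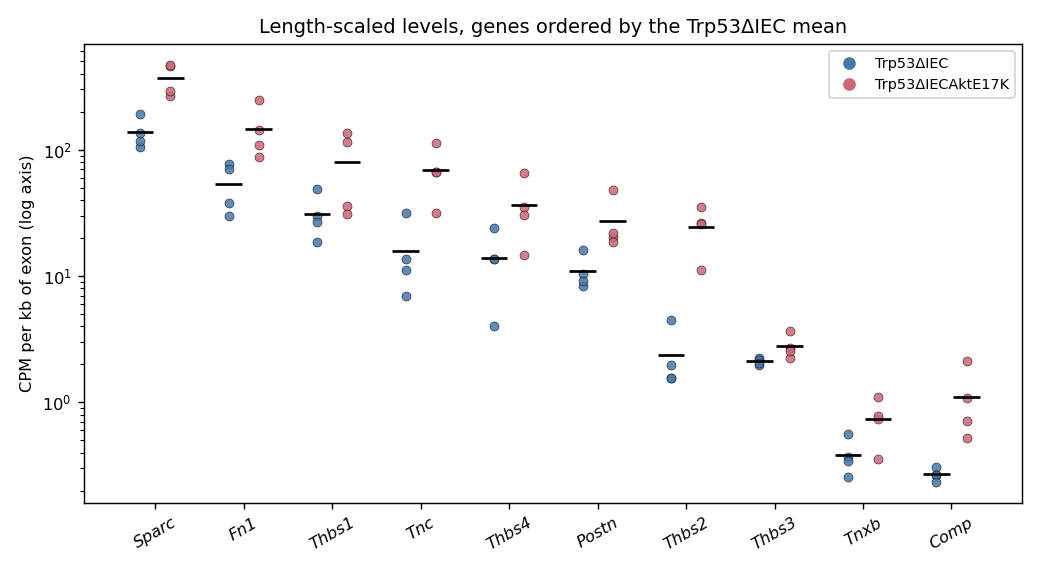
Levels scaled by exon length (y axis: CPM per kb of merged exon, log axis; points are tumours, bars are means, n = 4 per genotype), ordered by the Trp53ΔIEC mean. Sparc leads in both genotypes, and Thbs2 moves from the level of Thbs3 to that of Postn.

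Single tumours ranked alike across several of the genes. Trp53ΔIEC replicate 1 was the highest of its group for 8 of the 10 genes and replicate 2 the lowest for 6. Among Trp53ΔIECAktE17K tumours replicate 2 was the highest for 5 genes and replicate 4 the lowest for 6, although replicate 4 was the highest for Thbs4 and Tnxb. Stromal marker sums were also uneven. Fibroblast markers, of which Dcn and Col6a3 are also in the list of matrix partners, were led by Dcn (283.2 ± 20.9 and 529.9 ± 117 CPM) and Col6a3 (132.4 ± 63.2 and 139.6 ± 14.4 CPM) and summed to between 519.3 and 785.5 CPM in Trp53ΔIEC, highest in replicate 1 and lowest in replicate 2, and to between 750.5 and 1199 CPM in Trp53ΔIECAktE17K tumours, highest in replicate 1 and lowest in replicate 3, an order unlike that of the 10 genes there. Pdgfra, a receptor gene of fibroblasts and the second most abundant of these markers in Trp53ΔIEC tumours, had 148.2 ± 50.1 and 83 ± 32.8 CPM (log2 fold change -0.84, adjusted p = 0.225) and was the 1 fibroblast marker lower at an unadjusted p under 0.05. Smooth muscle markers, led by Acta2 (152.2 ± 33.1 and 344.4 ± 64.9 CPM) and Tagln (69.1 ± 17.6 and 335.3 ± 81.9 CPM), summed to between 396.2 and 671.5 CPM and between 1213 and 1977 CPM. Pericyte markers, led by Rgs5 (69.0 ± 12.5 and 114.8 ± 35.9 CPM) and Pdgfrb (65.1 ± 14.9 and 92.8 ± 24.3 CPM), summed to between 141.2 and 214.9 CPM and between 222.7 and 462.3 CPM. Of these 7 markers 4 rose and 6 were higher at an unadjusted p under 0.05 (median log2 fold change 1.96). Notch3, which the series title names, is 1 of the 7 and 1 of the 4 that rose (9.83 ± 1.71 and 30.8 ± 17.3 CPM, edgeR adjusted p = 0.0434). Endothelial markers summed to between 169.5 and 312.8 CPM and between 249.3 and 457.3 CPM. Of these 8 markers 1 rose and 5 were higher at an unadjusted p under 0.05 (median log2 fold change 0.83). Macrophage markers summed to between 306.3 and 601.2 CPM and between 218.4 and 641.3 CPM, with 0 of 7 called by edgeR and 1 higher at an unadjusted p under 0.05. Enteric glia markers summed to between 3.02 and 5.15 CPM and between 5.77 and 14.8 CPM. Of 4 tested 1 rose and 3 were higher at an unadjusted p under 0.05. Mesothelial markers summed to between 532.6 and 957.9 CPM and between 807.9 and 1170 CPM, with 1 of 3 higher at either threshold. Over all tested genes 3.44% rose and 12.8% were higher at the unadjusted p. Most of the mesothelial sum was Krt7 (628.2 ± 207 and 814.7 ± 144 CPM), a keratin gene that epithelium also expresses, and Msln (71.0 ± 39.1 and 122.9 ± 136 CPM), while Wt1, the marker that rose, had 0.0210 ± 0.0246 and 4.68 ± 2.87 CPM. The glial genes Sox10 and Cdh19 and the mesothelial gene Upk3b had 0 reads in every Trp53ΔIEC tumour.

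Relative to the summed fibroblast markers of the same tumour, a sum made up mostly of Dcn, Col6a3 and Pdgfra, Thbs2 and Sparc were the 2 of 10 genes whose groups still did not overlap, where 2.91% of all tested genes were higher and 22.8% lower without overlap on that ratio. For Thbs2 the log2 ratio was -6.16, -5.23, -5.83 and -4.47 in Trp53ΔIEC and -2.71, -2.18, -2.04 and -3.72 in Trp53ΔIECAktE17K tumours, a difference of 2.76. For Sparc it was -0.12, -0.39, -0.47 and -0.42 against 0.54, 0.68, 0.44 and 0.11, a difference of 0.80. Tnc differed by 1.59, Fn1 by 0.80 and Postn by 0.61, and Comp had means of -9.67 and -8.47, all with overlap, and Thbs3 by -0.27. Relative to pericyte markers Thbs2 alone of the 10 was higher without overlap (1.87% of all genes), by 2.38, and Thbs3 was lower without overlap (34.5% of all genes). Relative to smooth muscle markers 0 of the 10 were higher without overlap (0.967% of all genes), 1, Thbs3, was lower without overlap (69.8% of all genes), Thbs2 differed by 1.78 with overlap, and Sparc, Fn1 and Postn differed by -0.19, -0.18 and -0.37. The ratios were not tested.

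**Figure D4:**
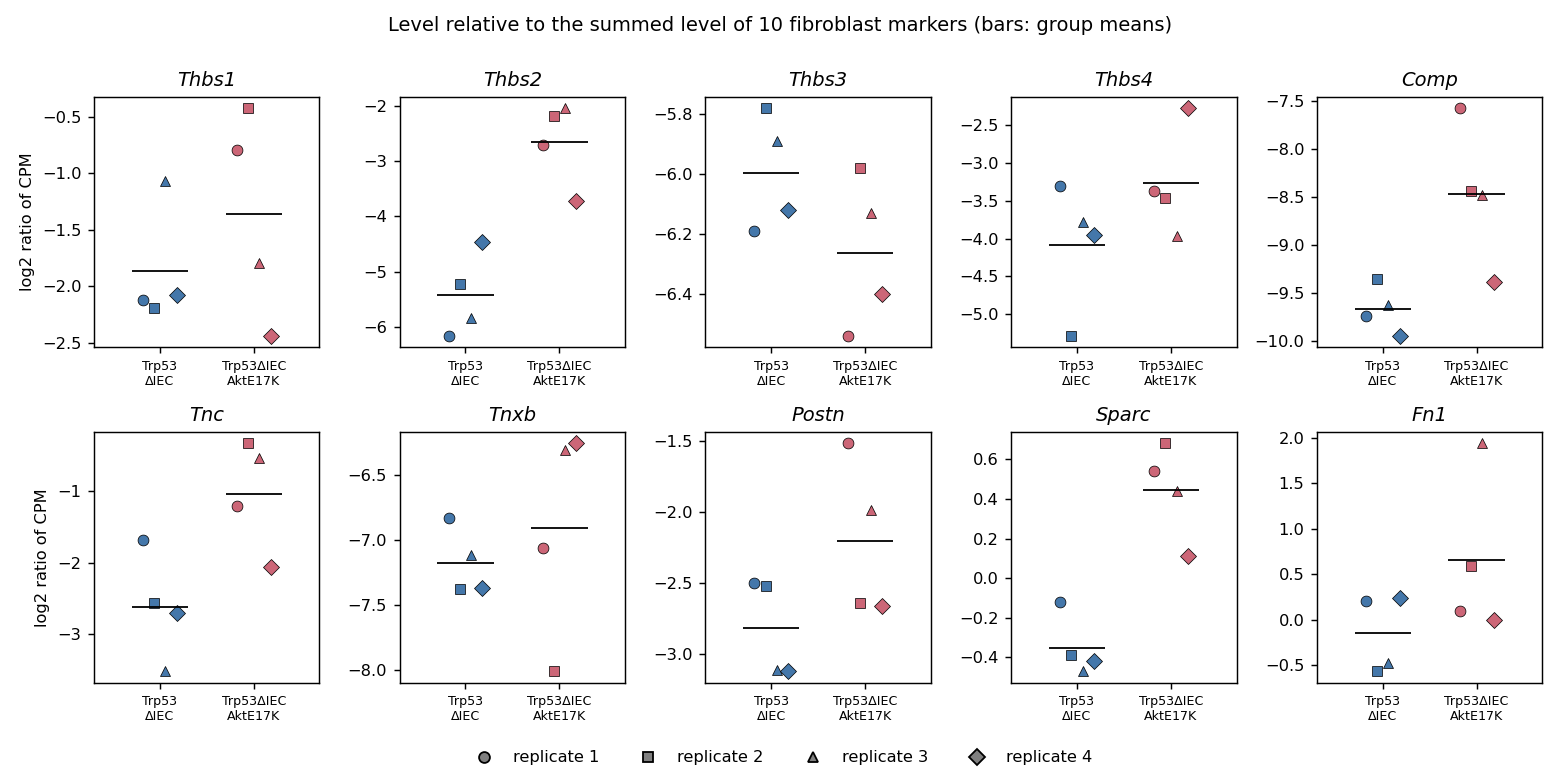
Log2 ratio of each gene's CPM to the summed CPM of 10 fibroblast markers in the same tumour (y axis, own range in each panel; x axis: genotype; bars are group means, n = 4). The 2 genotypes stay apart for Thbs2 and Sparc and overlap for the other 8 genes.

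Further matricellular and adhesive glycoproteins were higher in 9 of 31 tested genes and lower in 0 (18 higher and 1 lower at an unadjusted p under 0.05), with a median log2 fold change of 0.99. Those with the smallest adjusted p were Ccn5, a growth-restraining CCN family gene (0.416 ± 0.136 and 13.2 ± 7.12 CPM, adjusted p = 0.00829), the microfibril gene Mfap5 (1.71 ± 0.505 and 41.6 ± 24.2 CPM, adjusted p = 0.0142), Fstl1 (141.3 ± 21.6 and 385.7 ± 96.0 CPM, adjusted p = 0.0149) and Fbln2, the fibulin-2 gene (11.9 ± 6.20 and 135.6 ± 73.2 CPM, adjusted p = 0.0176). Fstl1 belongs to the same SPARC-related family as Sparc. Among the letter B tumours 0 of the 31 were called by edgeR and 13 were higher at an unadjusted p under 0.05, with a median of 0.64. In that fit 2230 of all 17035 tested genes reached that p, in either direction.

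Receptors stayed closer to the median of all genes: 2 of 22 rose and 0 fell (5 higher and 1 lower at an unadjusted p under 0.05), and their median log2 fold change was 0.12. Lrp1, the endocytic receptor that clears thrombospondins, rose from 112.5 ± 24.0 to 238.8 ± 54.5 CPM (adjusted p = 0.0356). Cacna2d1, a calcium channel subunit that binds thrombospondins, rose from 6.56 ± 0.531 to 21.5 ± 11.4 CPM (adjusted p = 0.0472). The integrin gene Itgb8, whose product activates latent TGF-beta, had 30.6 ± 7.85 and 15.1 ± 5.57 CPM (adjusted p = 0.111), and Itga9, an integrin subunit for tenascin C, had 25.9 ± 4.70 and 44.4 ± 16.1 CPM (adjusted p = 0.136). Among the letter B tumours 0 of 22 receptors were called by edgeR and 3 were higher and 1 lower at an unadjusted p under 0.05, with a median of -0.06. Of all genes tested there, 2230 of 17035 reached that p, in either direction.

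Matrix partners and processing enzymes rose in 9 of 24 tested genes and fell in 0 (16 and 1 at an unadjusted p under 0.05), with a median log2 fold change of 0.92. Leading genes were the collagen crosslinking enzyme gene Lox (log2 fold change 2.25, adjusted p = 0.00387), the fibrillin gene Fbn1 (1.77, adjusted p = 0.0124), the fibril-associated collagen gene Col12a1 (1.83, adjusted p = 0.0216) and Col5a1, a chain that starts collagen fibrils (1.17, adjusted p = 0.0259). Among 19 tested regulators 1 rose and 0 fell (5 and 1 at an unadjusted p under 0.05; median log2 fold change 0.14). It was Prrx1, a mesenchymal transcription factor gene that can activate Tnc, from 1.11 ± 0.668 to 19.3 ± 9.14 CPM (adjusted p = 0.0137). The log2 fold changes were 1.89 for Tgfb2, 2.29 for Tgfb3 and 3.68 for the transcription factor gene Twist1 (adjusted p = 0.0782, 0.114 and 0.106). Tgfb3 followed the title letter, with 127.9 and 76.1 CPM in the letter A tumours against 21.04 and 13.7 CPM in the other 2 of their group, and its log2 fold change among the letter B tumours was 0.48 (adjusted p = 0.674). There 1 of 24 matrix partners was called higher, Lox (log2 fold change 1.92, adjusted p = 0.0440), and 0 of 20 regulators, with 11 and 3 higher at an unadjusted p under 0.05. That p was reached by 2230 of all 17035 genes tested among the letter B tumours, in either direction. These lists were read beside the 3.44% of all genes that rose.

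**Figure D5:**
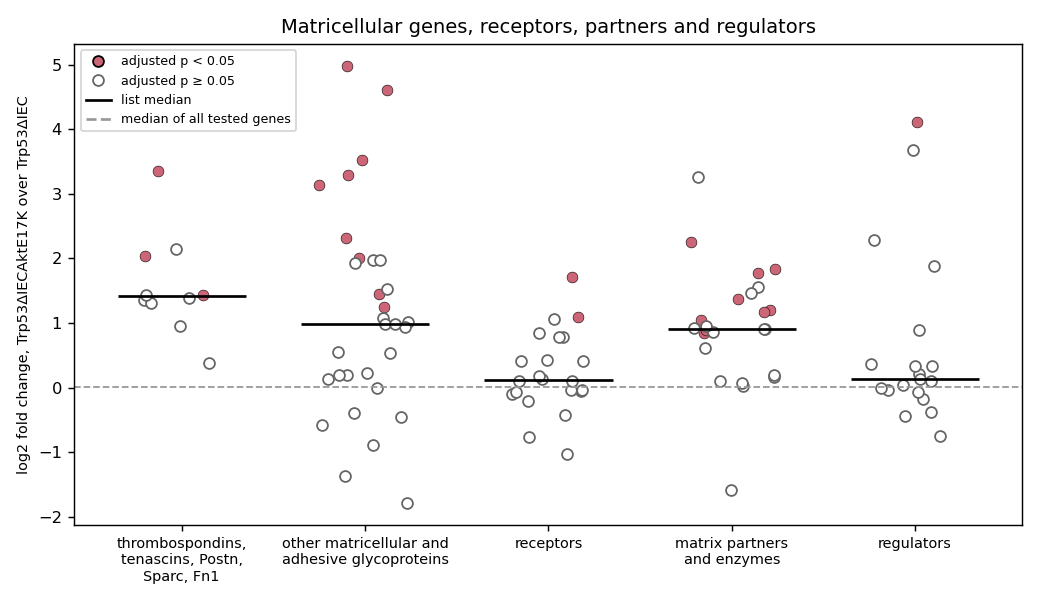
Log2 fold change of every tested gene in 5 lists (y axis; filled points: adjusted p under 0.05; bars: list medians; dashed line: median of all tested genes, 0.01). The medians are 1.41 for the 10 genes, 0.99 for other matricellular glycoproteins, 0.12 for receptors, 0.92 for matrix partners and 0.14 for regulators.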

How the data were processed

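RNA of 8 whole tumours was sequenced, after RNeasy extraction and TruSeq mRNA v2 library preparation per the labels' protocols. The authors deposited raw read counts per Ensembl gene, 1 table per tumour, with no normalisation. Per the submitters' processing notes the build was mm10, and the tools named are HTSeq 0.6, STAR 2.3.0, DESeq2 1.8.1, CASAVA 1.8.2 and SAMtools 1.2, with no role or order. The sources used here do not state the annotation release or strand setting. The 5 closing lines of unassigned reads were left out: reads in no feature were 9.74% to 11.7% and reads in more than 1 gene 1.93% to 2.32% of uniquely aligned reads. Symbols, positions and merged exon lengths came from GENCODE M21 (GRCm38), which held 36602 of 38355 identifiers. That release may differ from the one used for counting, which would alter the levels per kb.

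Counts were tested with edgeR 4.0.16 in R 4.3.3 (filterByExpr, TMM, robust quasi-likelihood F-test, group as the only term), with Benjamini-Hochberg adjustment over 16539 genes and a threshold of 0.05. The SE is the log2 fold change divided by the root of F. Alternatives were DESeq2 1.42.0, limma-voom (limma 3.58.1), RLE and upper-quartile scaling, no filter, the title letter, a replicate block, each tumour left out, and the letter B tumours alone, which was chosen after seeing the data, as were the lists without Trp53ΔIECAktE17K replicate 4. The edgeR procedure was also run on simulated counts with 200 changed genes, which gives no measure of how stable the calls are in these tumours. List genes named are, per list, the 4 with the smallest adjusted p, and per cell type list the 2 of highest mean level, which are given for the lists that touch a result. Myh6, Myl3, Tnnt2, Myh4, Col2a1, Notch3, Alb, Pdgfra, Wt1, Sox10, Cdh19 and Upk3b were named after their values were seen. The members and lists were chosen with earlier results of these data known. Counting error is largest for Comp, whose read counts are given.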

Additional observations from a re-analysis of the deposited data

Results flagged for a closer look

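Both genotypes were examined for each of the 10 genes, 20 groups of 4 tumours in all, for a tumour whose gap to its nearest neighbour divided by the group's range exceeded Dixon's 95% critical value. Chance flags about 1 in 20 such groups, and 2 were found. Thbs2 in Trp53ΔIEC replicate 4 had 31.2 CPM, against 10.9 to 13.9 CPM in the other 3, a gap of 0.853 of the range. Without this tumour the log2 fold change of Thbs2 was 3.85 (adjusted p = 0.0177). Postn in Trp53ΔIECAktE17K replicate 1 had 417 CPM, against 162.4 to 189.4 CPM in the other 3, a gap of 0.894 of the range.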

How the results depend on the processing

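All 10 genes kept a higher fitted level in Trp53ΔIECAktE17K tumours in each of the 16 alternatives run, with log2 fold changes between 0.08 and 3.85. Their calls did not hold as well. The 3 called genes became 6 with DESeq2, which called 1715 genes higher and 764 lower (8.31% of its tested genes higher) and added Tnc, Postn and Fn1. They became 0 with the title letter as a term (90 higher and 6 lower in all), 0 among the letter B tumours (22 and 4) and 0 with the replicate block (48 and 2), all by edgeR, with 7, 7 and 8 of the 10 at an unadjusted p under 0.05. Over all tested genes 2386 of 16539, 2230 of 17035 and 2865 of 16539 reached that p, in either direction. With 1 tumour left out, 0 to 4 of the 10 were called, with 64 to 702 genes higher and 10 to 247 lower, and fewer tumours also leave fewer degrees of freedom. Limma-voom, RLE scaling and no filter each called 2, losing Comp (adjusted p = 0.0761, 0.0531 and 0.0640). The labels do not pair the tumours by replicate number. Correlations of same-numbered deviations were -0.039, 0.008, -0.243 and 0.009, against -0.242 to 0.250 for tumours of different numbers. With 4 tumours per group these values cannot show whether pairs exist. Without Trp53ΔIECAktE17K replicate 4, 13 of 32 other matricellular genes were called higher and 1 lower, 2 of 22 receptors, 7 of 25 partners and 2 of 20 regulators higher, and 5 of 10 smooth muscle markers. Among the letter B tumours 2 of those 10, 0 of 10 fibroblast and 6 of 11 heart muscle markers were called higher. The cause of the differences with the letter was not tested. Depth limits Comp most, with 14 to 24 reads per Trp53ΔIEC tumour.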

Other observations

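For each gene, the 3 other genes whose deviations from the group means (log2 CPM) followed its own most closely over the 8 tumours were listed, as a description with no test. Their Pearson coefficients ran from 0.952 to 0.990, and with 8 tumours and 16539 genes high values are always found. Nearest to Sparc were the endothelial gene Emcn (0.984), the non-coding gene Dnm3os (0.980) and the collagen gene Col15a1 (0.974). Nearest to Thbs4 were Srd5a2 (0.990), Fcgbp (0.988) and Pdgfra (0.980), a receptor gene of fibroblasts. Nearest to Postn was Fgfr1 (0.987), a growth factor receptor gene that itself rose (log2 fold change 1.65, edgeR adjusted p = 0.0256). The genes nearest to Thbs1, Thbs2, Thbs3, Comp, Tnc, Tnxb and Fn1 were Plcb1, Ankle2, B4galt6, E130307A14Rik, Osbp2, Heca and Zfp518b, of which none passed the edgeR test (adjusted p of 0.0909 or more).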
